A study of Mus musculus with 9 samples.

Results

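Cdkn1c, Grb10, Igf2r, Phlda2 and Meg3 are 5 imprinted genes that are expressed mainly from the chromosome inherited from the mother, and they are described here across wild-type and Dnmt1-deficient mouse embryonic stem cells (ESCs). They were taken by name from a gene expression table, H19 being left aside. All 5 had a row among the 15074 genes used. An imprinted gene is transcribed mainly from 1 parental chromosome, because DNA methylation laid down in the egg or the sperm marks its control region on one of them. DNMT1 copies that methylation after each round of DNA replication. Cdkn1c and Phlda2 are under a control region that is methylated on the maternal chromosome in the Kcnq1 domain, and the control regions of Grb10 and Igf2r are also methylated on the maternal chromosome. The control region of Meg3, in the Dlk1-Dio3 domain, is methylated on the paternal chromosome.

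RNA was measured in 3 cell lines. WT cells were J1 ESCs. 1KO cells were Dnmt1-/- ESCs derived from J1. 1KO+1CI cells were 1KO ESCs that also carried a transgene for a catalytically inactive DNMT1 protein under the CAG promoter, a promoter that is active in most cell types. All ESCs were grown with LIF on mitomycin C-treated mouse embryonic fibroblasts, the feeder cells. RNA came from day 0, the undifferentiated ESCs, and from days 2 and 4 of differentiation toward epiblast-like cells, for which feeder cells were first removed on gelatin and embryoid bodies were then formed and plated without LIF. There was 1 library for each of the 9 combinations of line and day. Each line is represented by 1 culture a day, and 1 transgenic line stands for 1KO+1CI, so that a difference between lines cannot be told apart from a difference between clones. The values give the summed RNA of both parental chromosomes, and parental origin was not measured.

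Levels are in FPKM, reads scaled to transcript length and library size, as deposited. Differences are in log2(FPKM + 1), where 1 is a 2-fold change. The pseudocount makes a change of a low gene look smaller than it is. The depth recovered from the values lay between 20200000 and 28000000 reads a library. Dnmt1 itself was at 74.0, 80.4 and 48.5 FPKM on days 0, 2 and 4 in WT. The 1KO libraries had 13.7, 17.4 and 12.3 FPKM and the 1KO+1CI libraries 315, 129 and 158 FPKM, so the order followed the labels. Markers of pluripotent cells were measured for 8 of 8 genes. On days 0, 2 and 4 their summed level was 1596, 1979 and 1420 FPKM for WT and 1951, 1571 and 1146 FPKM for 1KO. For 1KO+1CI it was 1920, 1382 and 1051 FPKM. Both mutant lines were thus above WT on day 0 and below it on days 2 and 4. The part of this difference in the results was not tested. Feeder fibroblast markers were measured for 14 of 15 genes (Lum had no row), and their summed level on day 0 was 162 FPKM for WT, 335 FPKM for 1KO and 376 FPKM for 1KO+1CI. In the same order it was 30.8, 48.4 and 71.2 FPKM on day 2 and 43.5, 42.7 and 70.1 FPKM on day 4. In a limma fit of line and day, where a gene is called at an adjusted p under 0.05, 1 of these markers was higher for 1KO against WT and 4 for 1KO+1CI against WT, and none lower. Of all 15074 genes, 107 were called higher in the first comparison and 271 in the second. In RNA from a whole culture, fewer cells of a type and less RNA per cell cannot be told apart.

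The start regions of the members are shown for the CpG they hold. They are the 250 bases before a RefSeq start on GRCm38.p6, 5′ to 3′ on the strand of the gene, with each CpG, the site of DNA methylation, in capitals. The RefSeq promoter table held 4 of the 5 genes, and no annotated exon overlaps the 3 windows printed. Grb10 and Meg3 each had 2 listed starts, of which the most upstream was used. The Grb10 window lies within the annotated span of Grb10, which extends further upstream. Grb10 is at chr11:12037421-12037670 on the minus strand, Igf2r at chr17:12769707-12769956 on the minus strand, where the window lies within the antisense gene Airn, and Meg3 at chr12:109540746-109540995 on the plus strand.
Grb10: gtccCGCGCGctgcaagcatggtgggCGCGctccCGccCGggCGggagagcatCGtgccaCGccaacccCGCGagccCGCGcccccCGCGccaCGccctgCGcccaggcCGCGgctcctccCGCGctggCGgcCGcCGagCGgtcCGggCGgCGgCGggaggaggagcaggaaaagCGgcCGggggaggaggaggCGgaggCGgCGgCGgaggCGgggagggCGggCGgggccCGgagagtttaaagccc
Igf2r: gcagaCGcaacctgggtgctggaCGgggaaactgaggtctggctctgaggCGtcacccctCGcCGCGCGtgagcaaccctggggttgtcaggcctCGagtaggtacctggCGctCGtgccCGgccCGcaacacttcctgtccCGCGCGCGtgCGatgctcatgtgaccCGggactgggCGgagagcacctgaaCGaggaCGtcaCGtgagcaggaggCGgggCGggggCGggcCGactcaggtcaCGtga
Meg3: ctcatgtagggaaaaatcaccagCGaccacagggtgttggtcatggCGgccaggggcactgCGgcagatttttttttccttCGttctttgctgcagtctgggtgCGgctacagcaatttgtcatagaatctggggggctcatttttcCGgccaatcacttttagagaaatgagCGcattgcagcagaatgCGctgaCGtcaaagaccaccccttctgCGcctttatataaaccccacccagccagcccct
The Grb10 window held 40 CpG, and 1.31% of the 32851 promoter windows of the same length held as many or more. The Igf2r window held 27 CpG (8.56% of windows had as many) and the Meg3 window 10 (37.8%). The window of Phlda2, which lies within the annotated span of Phlda2, overlaps annotated exons and is not printed, held 21 (16.3%). The median over all windows was 6 CpG. The values analysed here hold no methylation levels for the windows.

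**Figure D1:**
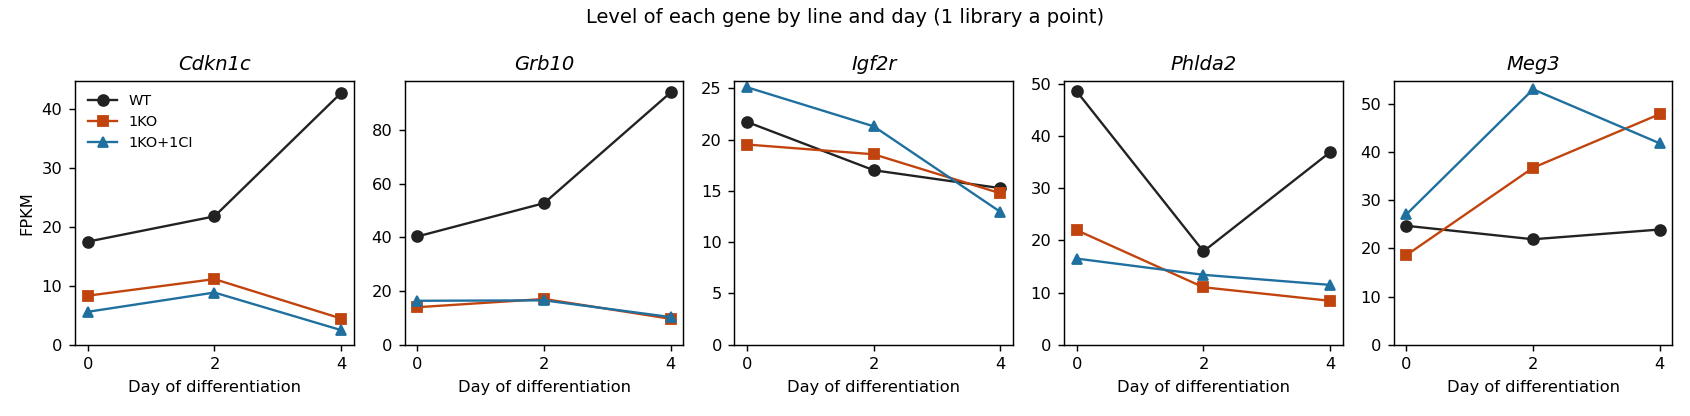
FPKM (vertical axis, from 0) of the 5 genes on days 0, 2 and 4 (horizontal axis) in WT (black circles), 1KO (orange squares) and 1KO+1CI (blue triangles), with 1 library a point. Cdkn1c and Grb10 were highest in WT on each day and reached 42.7 and 94.0 FPKM there on day 4, while Igf2r stayed between 12.9 and 25.1 FPKM in all 9 libraries.

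Grb10 encodes an adaptor protein that binds insulin and IGF1 receptors and restrains their signalling. The gene spans chr11:11930508-12038683 on the minus strand (GRCm38, ENSMUSG00000020176.17). Its level in WT was 40.3, 52.7 and 94.0 FPKM on days 0, 2 and 4. In 1KO it was 14.0, 17.0 and 9.66 FPKM, and in 1KO+1CI it was 16.4, 16.5 and 10.3 FPKM. Every WT library was therefore above every library of the mutant lines, and the lowest WT level was more than 2-fold above the highest mutant level, that of 1KO on day 2. For 2 of the 5 genes, Grb10 and Cdkn1c, each WT library was above each of the 6 others, as was the case for 3.36% of all genes. Among the mutant libraries, 1KO and 1KO+1CI on day 2 and 1KO+1CI on day 0 were within counting error of their neighbours in the order of levels, as were 1KO+1CI and 1KO on day 4.

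The deficit of Grb10 in 1KO was 2.88-fold on day 0 (95% interval 2.73 to 3.05, from the estimated reads and for counting error only), 3.09-fold on day 2 (2.93 to 3.26) and 9.72-fold on day 4 (9.12 to 10.4). In 1KO+1CI it was 2.46-fold, 3.19-fold and 9.11-fold on the same days. Both mutant lines were thus lowest relative to WT on day 4, when WT was at its highest and the mutants were at their lowest. A limma fit of line and day over the 9 libraries gave a difference between 1KO and WT of -2.06 (SE 0.33, adjusted p = 0.0281), and Grb10 was the only one of the 5 that passed, among the 1.15% of genes that were lower and the 0.71% that were higher at an adjusted p under 0.05. For 1KO+1CI against WT it was -1.98 (SE 0.33, adjusted p = 0.0216). Both comparisons use the same WT libraries. The fit takes its error from 4 residual degrees of freedom, which hold the noise of the libraries together with any difference between lines that varied with the day. Leaving out 1 library raised the adjusted p for 1KO against WT to 0.0742 without WT day 2, 0.114, 0.135 and 0.132 without 1KO days 0, 2 and 4, and 0.0538 and 0.0606 without 1KO+1CI days 0 and 2, while the difference stayed between -2.40 and -1.52. The difference was smallest, at -1.52, without WT day 4. For 1KO+1CI against WT, the call was lost without any 1 of the 3 1KO+1CI libraries (adjusted p between 0.0774 and 0.0883).

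Cdkn1c encodes p57, an inhibitor of cyclin-dependent kinases that holds back the cell cycle. It lies at chr7:143458339-143461050 on the minus strand (ENSMUSG00000037664.13). In WT it was at 17.5, 21.8 and 42.7 FPKM on days 0, 2 and 4. In 1KO it was at 8.32, 11.1 and 4.45 FPKM and in 1KO+1CI at 5.59, 8.86 and 2.49 FPKM. The WT libraries were all above the mutant ones, and within each day the order was WT, then 1KO, then 1KO+1CI. Of neighbours in the order of levels, only 1KO+1CI on day 2 and 1KO on day 0 were within counting error.

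The level of Cdkn1c in WT was 2.10-fold that in 1KO on day 0 (95% counting interval 1.86 to 2.37), 1.96-fold on day 2 (1.75 to 2.19) and 9.59-fold on day 4 (8.26 to 11.2). Relative to 1KO+1CI it was 3.13-fold, 2.46-fold and 17.2-fold, the last with an interval of 13.9 to 21.3. On day 4 the 1KO+1CI level rests on about 95 reads and the WT level on about 1694. The fitted difference was -2.11 (SE 0.44, adjusted p = 0.0400) for 1KO+1CI against WT. For 1KO against WT it was -1.63 (SE 0.44, adjusted p = 0.122), which did not pass. Its size rested on 1 library. Without WT day 4 it was -0.91, with an adjusted p of 0.0348, and without the other libraries it lay between -2.04 and -1.33. The call for 1KO+1CI was kept without WT day 0 and without WT day 4, where the difference was -1.39, and was lost without WT day 2 (adjusted p = 0.0543) and without any 1 of the 6 mutant libraries (0.0589 to 0.136).

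Phlda2, which lies 40494 bases from Cdkn1c at chr7:143501545-143503150 on the minus strand (ENSMUSG00000010760.5), encodes a small pleckstrin homology protein known for limiting the growth of the placenta. It was at 48.5, 17.9 and 36.9 FPKM in WT, at 21.9, 11.0 and 8.42 FPKM in 1KO and at 16.5, 13.4 and 11.5 FPKM in 1KO+1CI. WT was the highest line on each day, but the groups overlapped across days, with WT on day 2 below 1KO on day 0 and within counting error of 1KO+1CI on day 0. The 1KO+1CI levels of days 2 and 4 and the 1KO level of day 2 were also within counting error of their neighbours. Unlike Grb10 and Cdkn1c, Phlda2 in WT was lower on day 2 than on day 0, past 2-fold as 3.87% of genes did, and higher on day 4 than on day 2, past 2-fold as 3.83% of genes were. The WT level was 2.21-fold that of 1KO on day 0 (95% counting interval 1.97 to 2.49), 1.62-fold on day 2 (1.35 to 1.96) and 4.38-fold on day 4 (3.65 to 5.30). The fitted differences from WT were -1.26 in 1KO (SE 0.26, adjusted p = 0.0602) and -1.16 in 1KO+1CI (SE 0.26, adjusted p = 0.0526), and neither passed. Both lay close to the threshold. Over 5 other settings with the same 9 libraries, Phlda2 passed in 2 for 1KO (adjusted p between 0.0460 and 0.0742) and in 4 for 1KO+1CI (0.0427 to 0.0629). Leaving out 1 library, it passed in both comparisons without WT day 2 (adjusted p = 0.0488 and 0.0324) and in neither without any other. The levels of Phlda2 rest on about 144 to 759 reads a library.

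Igf2r encodes the receptor that takes IGF2 to the lysosome for degradation and also carries mannose 6-phosphate enzymes. It spans chr17:12682406-12769664 on the minus strand (ENSMUSG00000023830.14). It was at 21.7, 17.0 and 15.3 FPKM in WT, 19.5, 18.6 and 14.8 FPKM in 1KO and 25.1, 21.3 and 12.9 FPKM in 1KO+1CI. The lines overlapped, and the highest of the 9 levels was 1.94-fold the lowest, the narrowest range of the 5 genes. WT on day 0 and 1KO+1CI on day 2 were within counting error, as were WT and 1KO on day 4. The fitted difference between 1KO and WT was -0.02, with a 95% interval of -0.32 to 0.27, and that between 1KO+1CI and WT was 0.10 (-0.20 to 0.39). A difference as large as that of Grb10 is outside both intervals. The level fell with time instead. The fitted difference between day 4 and day 0 was -0.59 (SE 0.13, adjusted p = 0.0159), lower in 3 of 3 lines, and 12.3% of genes were called lower in this comparison. The call was lost without 1KO+1CI day 0 (adjusted p = 0.0878) or 1KO+1CI day 4 (0.0542). With all 9 libraries, no other of the 5 genes passed for day 4 or day 2 against day 0. Without WT day 4, only the mutant lines represent day 4. The difference between day 4 and day 0 then passed for Cdkn1c (-0.88, adjusted p = 0.0078), Grb10 (-0.52, adjusted p = 0.0235) and Phlda2 (-1.02, adjusted p = 0.0285). It does not describe WT, where Cdkn1c rose by 1.24 and Grb10 by 1.20 over those days. In the same fit, the difference between day 2 and day 0 passed for Phlda2 (-0.87, adjusted p = 0.0315). Without WT day 2, Phlda2 passed for day 4 (-0.72, adjusted p = 0.0300). Without WT day 0, where only the mutant lines represent day 0, Meg3 passed for day 4 (0.98, adjusted p = 0.0066) and day 2 (0.93, adjusted p = 0.0164). Airn, transcribed from the opposite strand across the Igf2r start, had no row in the table, and as no strand setting is given, reads of the overlapping stretch cannot be told apart.

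Meg3 is a long noncoding RNA of the Dlk1-Dio3 domain, at chr12:109541001-109571726 on the plus strand (ENSMUSG00000021268.17). WT was at 24.7, 21.9 and 23.9 FPKM, 1KO at 18.6, 36.7 and 47.8 FPKM and 1KO+1CI at 27.1, 53.0 and 41.8 FPKM. In the order of levels, WT on days 0 and 4 and WT on days 4 and 2 were neighbours within counting error. The mutant lines were above WT on days 2 and 4, while on day 0 1KO was the lowest of the 9 libraries. The difference of 1KO from WT in log2(FPKM + 1) was -0.39 on day 0, 0.72 on day 2 and 0.97 on day 4. For 1KO+1CI the differences were 0.13, 1.24 and 0.78. The fitted differences from WT, 0.43 in 1KO (SE 0.25, adjusted p = 0.472) and 0.72 in 1KO+1CI (SE 0.25, adjusted p = 0.158), did not pass. Without WT day 0 the 1KO+1CI difference was 1.07 and did pass (adjusted p = 0.0278). Meg3 has 3 RefSeq transcripts of 1896 to 14548 bases, and its FPKM does not separate them. Its reads were estimated from the shortest, which gives the widest counting intervals. The interval of WT day 4 over WT day 2 only just held 1 (0.9995 to 1.20).

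**Figure D2:**
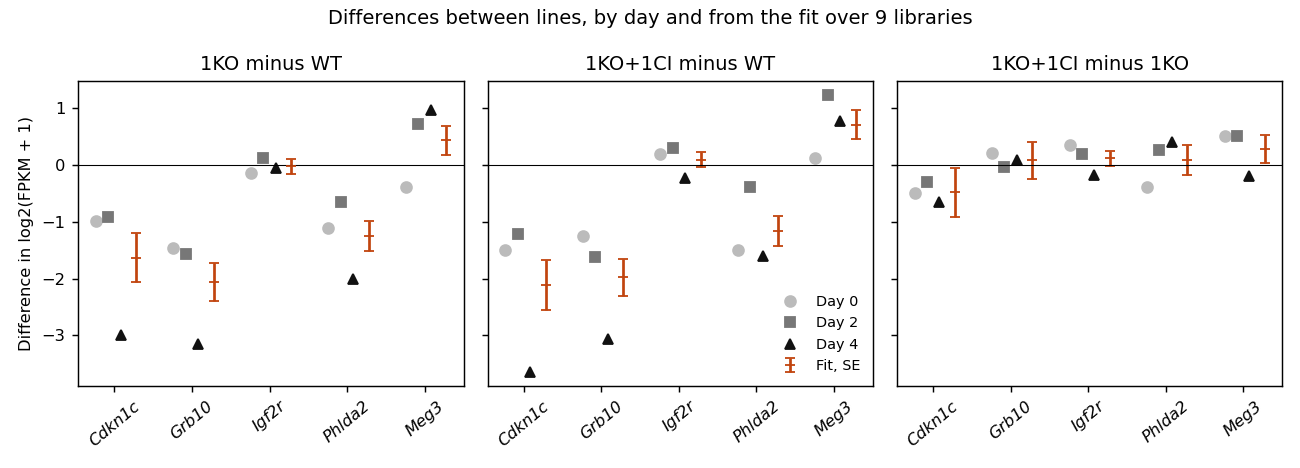
Difference in log2(FPKM + 1) (vertical axis) between lines for each gene on day 0 (light circles), day 2 (grey squares) and day 4 (black triangles), and the coefficient of the limma fit with its SE (orange bar). The day 4 points of Cdkn1c and Grb10 lie at or below -3.00 in both comparisons with WT, and the points of 1KO+1CI against 1KO lie between -0.65 and 0.52.

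Seen by day in log2(FPKM + 1), 2 of the 5 genes (Grb10 and Phlda2) were past 2-fold lower in 1KO than in WT on day 0. Of all genes, 1.55% were. Cdkn1c was at -0.99 on that scale, just short of 2-fold, though it was 2.10-fold lower in FPKM. On day 2 only Grb10 was past 2-fold lower, against 0.663% of genes, and on day 4 Cdkn1c, Grb10 and Phlda2 all were, against 0.59%. In 1KO+1CI, Cdkn1c, Grb10 and Phlda2 were past 2-fold on day 0 (1.97% of genes), Cdkn1c and Grb10 on day 2 (1.26%) and all 3 on day 4 (1.01%). Meg3 was past 2-fold higher in 1KO+1CI on day 2, as 2.28% of genes were. In the fit, Cdkn1c and Grb10 were called lower in 1KO+1CI against WT, against 2.14% of genes. None of these comparisons of single libraries has a replicate error.

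By the size of the fitted difference between 1KO and WT, Grb10 was the second lowest of the 15074 genes, after Dnmt1 itself, Cdkn1c the 4th and Phlda2 the 7th. Cdkn1c and Phlda2 did not pass the test there. The pseudocount limits how far a gene at a low level can fall on this scale, so the order favours genes at higher levels. In 1KO+1CI against WT, Cdkn1c was the lowest and Grb10 the second lowest, and Phlda2 was the 19th. Igf2r stood near the middle, with 43.8% of genes at or below it in the first comparison and 66.3% in the second. Meg3 stood in the upper part, with 94.6% and 97.4%. The median of all genes was 0.00 in both comparisons.

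**Figure D3:**
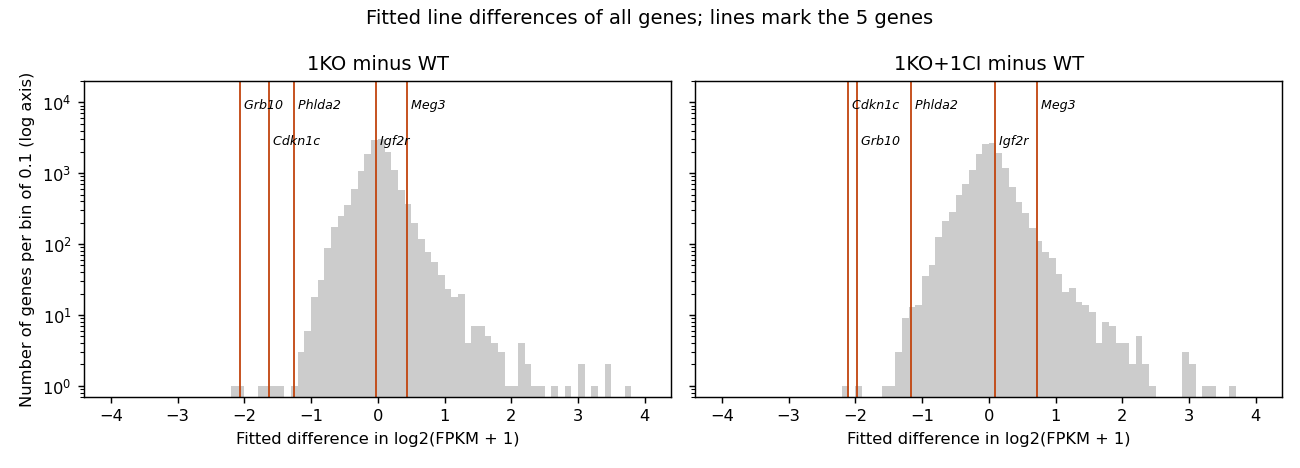
Number of genes (vertical axis, log scale) by fitted difference in log2(FPKM + 1) from WT (horizontal axis, bins of 0.1) for 1KO (left) and 1KO+1CI (right), with orange lines at the 5 genes. Grb10 and Cdkn1c lie at the lower end of both distributions, at -2.06 and -1.63 in 1KO, and Igf2r lies in the middle.

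The next comparison addresses whether a DNMT1 protein without catalytic activity changed these levels in Dnmt1-null cells. Across 1KO+1CI and 1KO, 1 gene of the table (0.00663%) was called, and it was Dnmt1, whose transgene is part of the design. The number of genes with an unadjusted p under 0.05 was 564 of 15074. That share is below the 0.05 that such a cutoff takes on average where no gene differs. None of the 5 genes passed. The fitted difference was 0.09 for Grb10 (95% interval -0.68 to 0.85), 0.09 for Phlda2 (-0.51 to 0.70), 0.12 for Igf2r (-0.18 to 0.42), 0.28 for Meg3 (-0.29 to 0.85) and -0.48 for Cdkn1c (-1.49 to 0.52). Only the interval of Cdkn1c holds a 2-fold difference. A return of Grb10 to its WT level, a rise of about the -2.06 by which 1KO was below WT, lies outside its interval. On each of the 3 days the 1KO+1CI level of Cdkn1c was below the 1KO level, by differences of -0.50, -0.30 and -0.65 in log2(FPKM + 1), and none of these differences reached 2-fold.

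The course over time differed between the lines for Cdkn1c and Grb10. In WT, both were more than 2-fold higher on day 4 than on day 0 (1.24 and 1.20 in log2), as were 1.98% of genes. In 1KO, Cdkn1c was 2.50-fold lower on day 4 than on day 2 (95% counting interval 2.11 to 2.98), past 2-fold as 3.64% of genes were, and in 1KO+1CI it was 3.56-fold lower (2.82 to 4.50), as 3.1% of genes were. Grb10 was lower on day 4 than on day 2 in both mutant lines, by differences of -0.76 and -0.63 in log2, short of 2-fold. Phlda2 in 1KO was 2.61-fold lower on day 4 than on day 0, where 5.13% of genes were past 2-fold lower, and Meg3 was past 2-fold higher, where 4.17% were. Markers of primitive streak and mesoderm (6 of 9 measured, with no row for Mesp1, Tbx6 and Gsc) were highest in sum on day 4 in each line, WT included. Their summed level on day 4 was 23.6 FPKM for WT, 160 FPKM for 1KO and 151 FPKM for 1KO+1CI, against 5.06 to 14.1 FPKM in the 6 libraries of days 0 and 2. T, the streak factor brachyury, was at 2.07, 29.2 and 27.2 FPKM on day 4. Their part in the results of day 4 was not tested. Trophoblast markers (8 of 12 measured, and no row for Cdx2, Elf5, Plac1 and Tpbpa) summed to between 94.3 and 374 FPKM, and primitive endoderm markers (9 of 9) to between 37.3 and 130 FPKM, highest in both cases in 1KO+1CI on day 4. In the fit for 1KO against WT none of the pluripotent, trophoblast, streak or endoderm markers passed, and for 1KO+1CI against WT 1 pluripotent and 6 endoderm markers were called higher. Of all 15074 genes, 271 were called higher in 1KO+1CI against WT. The part of these markers in the results was not tested either. The part of the feeder fibroblast sums given at the start was not tested. Pdgfra is in both the feeder fibroblast and endoderm lists, and Eomes and Hand1 are in both the trophoblast and streak lists. The sums and counts of these lists are therefore not fully separate.

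**Figure D4:**
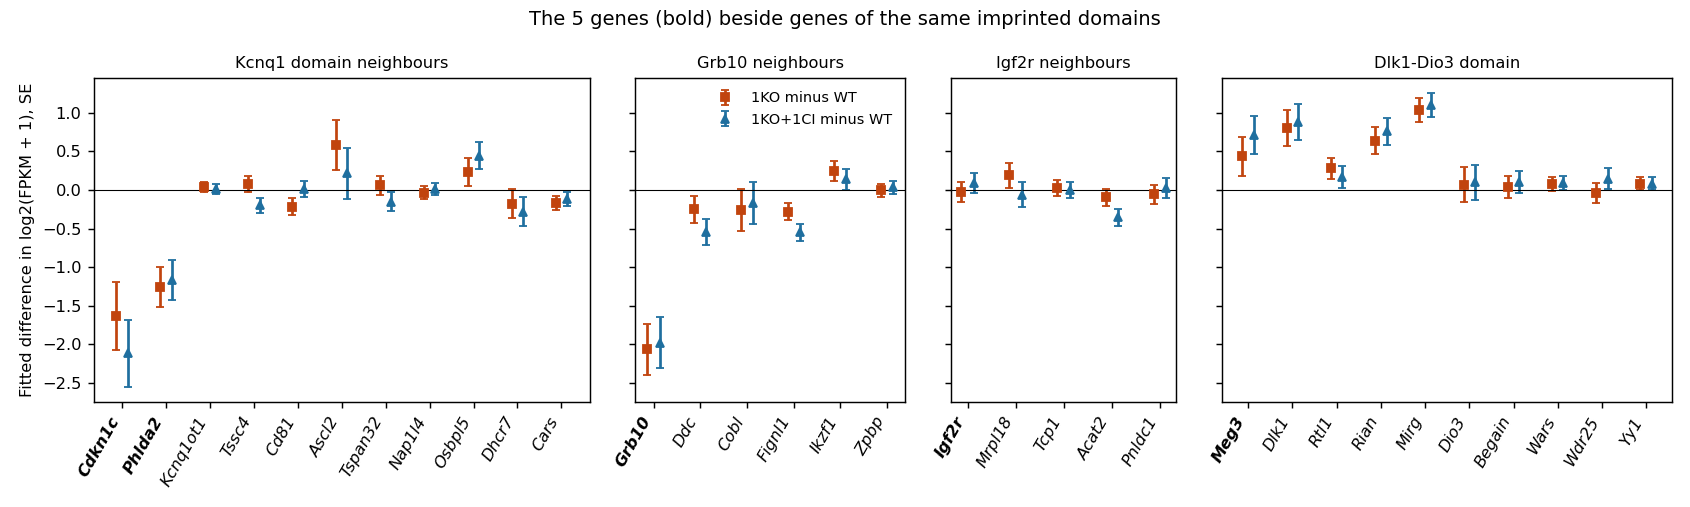
Fitted difference from WT in log2(FPKM + 1) (vertical axis, SE as bars) of the 5 genes (bold) and of measured genes of the same chromosomal domains, for 1KO (orange squares) and 1KO+1CI (blue triangles). Cdkn1c, Phlda2 and Grb10 lie below -1 while their neighbours lie between -0.55 and 0.58.

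Genes that flank the members were next compared. Of 13 listed genes of the Kcnq1 domain, where Cdkn1c and Phlda2 lie, 9 had a row and none passed in 1KO or 1KO+1CI against WT (medians 0.04 and 0.01, beside 0.00 for all genes). The one past 2-fold on any day in log2(FPKM + 1) was Ascl2, a transcription factor of trophoblast that is also maternally expressed. It was higher in 1KO by 1.07 on day 0 and 1.04 on day 2 and differed by -0.37 on day 4. Kcnq1ot1, the paternally expressed noncoding RNA of the domain, was at 0.049, 0.018 and 0.024 FPKM in WT on days 0, 2 and 4. On the same days it was at 0.028, 0.068 and 0.079 FPKM in 1KO and at 0.026, 0.043 and 0.041 FPKM in 1KO+1CI. It is a long gene (chr7:143203458-143296549), and at such levels the pseudocount hides differences between lines. Its reads were not estimated. Of 5 genes next to Grb10, all measured, none passed in 1KO, and Fignl1 was lower in 1KO+1CI (-0.55, adjusted p = 0.0350). Of 10 genes near Igf2r, 4 had a row and none passed.

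In the Dlk1-Dio3 domain, where Meg3 lies, all 9 listed genes were measured. In each comparison with WT, 1 was called higher and none lower, and the median was 0.08 in 1KO and 0.15 in 1KO+1CI. Of all 15074 genes, 107 were called higher in 1KO and 271 in 1KO+1CI. The called gene of the domain was Mirg, a noncoding RNA that lies downstream of Meg3 on chromosome 12 and is also expressed from the maternal chromosome. Its WT levels were 5.79, 9.29 and 12.0 FPKM, its 1KO levels 12.8, 19.8 and 26.2 FPKM and its 1KO+1CI levels 13.5, 27.5 and 20.6 FPKM. The fitted difference from WT was 1.03 in 1KO (adjusted p = 0.0238) and 1.10 in 1KO+1CI (adjusted p = 0.0138). Mirg was above WT on each day in both mutant lines, which Meg3 was not on day 0 in 1KO. Rian, the noncoding RNA between Meg3 and Mirg and chosen after its values were seen, differed from WT by 0.64 (adjusted p = 0.128) and 0.76 (adjusted p = 0.0543). Dlk1, a paternally expressed gene of the domain, differed by 0.80 (adjusted p = 0.151) and 0.88 (adjusted p = 0.0783).

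Other maternally expressed imprinted genes were taken as a further list. Of 29 genes, some of which are also domain neighbours above, 22 were measured. In 1KO, 3 of them were called higher (H19, Mirg and the X-linked Xlr3b) and none lower, with a median of 0.07. Of all 15074 genes, 107 were called higher and 174 lower in 1KO. The counts for the list were the same in 1KO+1CI against WT, where 271 of all 15074 genes were called higher, with a median of 0.15 for the list. Of 5 measured genes of 6 listed in the H19-Igf2 domain, 1 was called higher and 1 lower. H19 rose by 3.71 (adjusted p = 0.0120) and its neighbour Igf2, which encodes the growth factor that Igf2r removes, fell by 1.51 on the log2 scale in 1KO (adjusted p = 0.0134). Igf2 was at 49.6, 11.2 and 16.7 FPKM in WT and 22.0, 3.78 and 3.30 FPKM in 1KO. Xlr3b rose by 3.45 (adjusted p = 6.99e-05).

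Grb10 and Igf2r act on insulin and IGF signalling. Of 35 listed genes of that pathway, 31 were measured, and Igf2 alone passed in 1KO against WT (median -0.02). In 1KO+1CI, Igfbp7, which binds IGFs weakly, was also called, higher by 1.00 (adjusted p = 0.0387), and the feeder fibroblast sum was higher as well in that line. Irs2, an adaptor of the insulin receptor, differed from WT by -0.83 in 1KO in the fit (adjusted p = 0.275). On days 0, 2 and 4 its difference from WT in log2(FPKM + 1) was -1.42, -0.96 and -0.11 in 1KO. In 1KO+1CI it was -1.73, -1.01 and 0.32. Relatives of the members were taken as another list of 11, all measured, and none passed in 1KO against WT. Cdkn1a, which encodes p21, a relative of p57, differed by 0.51 (adjusted p = 0.0502) in 1KO and was called higher by 0.97 in 1KO+1CI (adjusted p = 0.0056). Phlda3 was higher (0.59, adjusted p = 0.0406) and Grb7, an adaptor of the Grb10 family, lower (-0.79, adjusted p = 0.0387) in 1KO+1CI against WT. Of 11 genes for the copying and protection of methylation imprints, all measured, Dppa3, known for shielding maternal methylation in the zygote, was called higher in both mutant lines (1.08 and 1.05). Dnmt1 was the other gene called, with -2.13 for 1KO against WT and 1.48 for 1KO+1CI against WT. Dnmt3l, a cofactor of the de novo methyltransferases, was past 2-fold higher in 1KO on day 0 (203 against 41.3 FPKM) and had a fitted difference of 1.07 (adjusted p = 0.230). Zfp57, a zinc finger protein that protects methylated imprints, was past 2-fold higher in 1KO on day 0 (92.7 against 37.0 FPKM) and did not pass in the fit.

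Grb10 and Cdkn1c, which lie on different chromosomes, had similar patterns over the 9 libraries (Pearson r = 0.95 of log2(FPKM + 1), n = 9, as a description). The points share lines and days, and the correlation therefore restates the gap between WT and the mutant lines and the day 4 difference. For Phlda2, r was 0.76 with Grb10 and 0.71 with Cdkn1c. Igf2r was nearly unrelated to Cdkn1c and Grb10 (r = 0.11 and 0.02), and Meg3 was negatively related to the other 4 (r between -0.70 and -0.25). Among 4952 genes that ranged over at least 2-fold, the genes most like Cdkn1c were Sap30 (r = 0.96), Adad2 (0.95) and Grb10, and those most like Grb10 were Adad2 (0.99), Cdkn1c and Gins4 (0.94). Adad2 was at 3.44, 5.52 and 6.83 FPKM in WT and between 0.79 and 1.88 FPKM in the 6 mutant libraries, and so had a gap like that of Grb10. The nearest to Igf2r were Elavl2 (0.99), Mical1 (0.94) and H2-Ke6 (0.94), and to Phlda2 Rnaseh2a (0.93), Pir (0.93) and Fbxl8 (0.92). The nearest to Meg3 were Inpp5f (0.92), Dnajb3 (0.92) and the microRNA gene Mir1906-2 (0.91) on the X chromosome. A gene of the same series of names, Mir1906-1, lies within Meg3, and how reads were assigned between these copies is not given in the sources used here.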

How the data were processed

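RNA was selected with oligo(dT) beads and sequenced as paired reads. Per the labels and the study's methods, the authors used Trim Galore for trimming, HISAT2 and SAMtools for alignment to mm10, and HOMER for gene values. The deposited values are FPKM per gene. Neither versions nor the strand setting nor the way transcripts of a gene were combined is stated in the sources used here. Of 15095 rows, 21 that name no gene (at most 0.117% of summed FPKM) were left out, and the 15074 used held 0 values of exactly 0. A deposited table of repeats was not used.

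The members and the gene lists were chosen with earlier results of these data known. The genes named are the 5 members, from each list at most 4 genes past 2-fold on some day or past the test, largest first by the 1KO against WT difference, and the 3 genes most correlated with each member. Rian, Kcnq1ot1 and Airn were named outside that rule, after their values were seen.

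Line and day were fitted as additive terms to log2(FPKM + 1) of all 9 libraries with limma 3.58.1 (moderated with a trend) in R 4.3.3, with Benjamini-Hochberg adjustment over all genes and a threshold of 0.05. The paper reports 2 independent 1KO+1CI clones that were studied side by side, but which clone these libraries came from is not stated. No replicate cultures of a line and day are named for the RNA, and p-values measure only the spread among the 9 libraries. Single libraries were compared without a test, past 2-fold being a difference over 1. Depth was recovered from 1850 genes with 1 annotated transcript, whose reads came out whole (within 0.08) for 37.4% to 42.7% of genes, against 15.5% to 15.8% at other depths. Reads of a member were estimated from its shortest matched transcript, and exact 95% (Clopper-Pearson) intervals of ratios cover counting error only. Gene positions are from GENCODE M21. Both the fit and the depth estimate were tested on simulated data. Python 3.11.15 with pandas 2.3.3, numpy 2.4.6, scipy 1.17.1 and matplotlib 3.10.9 was used. Alternatives were another pseudocount, 2 scalings, a minimum mean, no trend, and leaving out each library or day.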

Additional observations from a re-analysis of the deposited data

Results flagged for a closer look

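For Cdkn1c and Grb10, the course from day 2 to day 4 went up in WT and down in both mutant lines. From day 0 to day 2, Cdkn1c differed by 0.30 for WT, 0.38 for 1KO and 0.58 for 1KO+1CI. Over the same days, Grb10 differed by 0.38 for WT, 0.27 for 1KO and 0.01 for 1KO+1CI. From day 2 to day 4, the log2(FPKM + 1) of Cdkn1c differed by 0.94 for WT, by -1.15 for 1KO and by -1.50 for 1KO+1CI, so that the mutant courses were -2.09 and -2.44 from that of WT. From day 0 to day 4 WT differed by 1.24, 1KO by -0.77 and 1KO+1CI by -0.92, and the mutant courses were -2.01 and -2.16 from WT. For Grb10 from day 2 to day 4, WT differed by 0.82, 1KO by -0.76 and 1KO+1CI by -0.63, a gap of -1.58 and -1.46. From day 0 to day 4, WT differed by 1.20, 1KO by -0.49 and 1KO+1CI by -0.62, a gap of -1.69 and -1.82. Phlda2 had the same directions from day 2 to day 4 with smaller changes in the mutant lines, at 1.00 for WT, -0.35 for 1KO and -0.21 for 1KO+1CI, a gap of -1.36 and -1.21. Each value rests on 1 library a condition and the differences between courses were not tested. The WT day 4 library enters every gap given here.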

How the results depend on the processing

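The calls of Grb10 in both comparisons with WT, of Cdkn1c in 1KO+1CI against WT and of Igf2r for day 4 against day 0 held in 5 of 5 alternatives that used all 9 libraries (a pseudocount of 0.1, median-ratio scaling, scaling to summed FPKM, a mean of at least 1 FPKM, no trend). Leaving out each of the 9 libraries, Grb10 was called in 3 for 1KO and 6 for 1KO+1CI, Cdkn1c in 2 and Igf2r in 7. Leaving out each of the 3 days, Grb10 was called in 1 for 1KO (adjusted p up to 0.273) and 1 for 1KO+1CI (up to 0.158), and Cdkn1c in 1 for 1KO+1CI (up to 0.159). Phlda2, not called for day 2 against day 0, was called without day 4 (adjusted p = 0.0498). The number of genes called moved more with the libraries left out than under these 5 settings. For 1KO against WT it was 281, and 9, 2 and 14 without day 0, 2 or 4, and 7 to 356 leaving out 1 library. For 1KO+1CI against WT it was 593, and 17, 2 and 41 without day 0, 2 or 4, and 67 to 684 leaving out 1 library. For 1KO+1CI against 1KO it was 1, and 0 without day 0 and 0 without day 4 (0 to 1 leaving out 1 library). For day 4 against day 0 it was 3554, and 2253 without day 2 (1366 to 4127 leaving out 1 library), and for day 2 against day 0 it was 2328 (445 to 2938). Fewer samples leave fewer residual degrees of freedom, which these alternatives do by construction. Signs turned for some coefficients that were not called. Igf2r in 1KO against WT was 0.037 without day 0 (-0.113 to 0.0633 leaving out 1 library) and in 1KO+1CI against WT -0.011 without day 2. For 1KO+1CI against 1KO, leaving out 1 library gave -0.19 to 0.36 for Grb10 and -0.17 to 0.30 for Phlda2, which was -0.065 without day 4. For day 4 against day 0 it gave -0.88 to 0.27 for Cdkn1c and -0.52 to 0.30 for Grb10, and for day 2 against day 0 -0.11 to 0.43 for Grb10. The labels give no replicate numbers that lines share, and the lines were compared within days through the day term of the fit, so no further pairing was made.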
